A study of Ambystoma mexicanum with 44 samples.

Results

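Genes for building ribosomes in the nucleolus were followed through wound healing in axolotl skin. The genes were taken by name. Any symbol made of NOP, UTP, RRP, NOL, NOC, POLR1 or GNL and further letters or digits was included, with BOP1, PES1, WDR12, FBL, NCL, NPM1, DKC1, RRS1, NIP7, MRTO4, BYSL and EBNA1BP2. The array measured 48 such genes of 8639 with a symbol, on 57 probe sets, and EBNA1BP2 was not among the annotated probe sets. The name rule itself uses no expression value, but the genes were chosen with earlier results of these data known. A gene with several probe sets (8 of the 48) is represented by the one with the highest mean over all arrays.

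Ribosomes are put together in the nucleolus. RNA polymerase I copies the ribosomal DNA into a long precursor RNA, small nucleolar ribonucleoproteins (snoRNPs) modify its bases and sugars, and many assembly factors fold and cleave it into the small and the large subunit. Growing cells need much of this machinery, and nucleolar proteins are often used as signs of growth. An axolotl regrows an amputated limb under a wound epidermis if the nerves of the stump are intact, whereas a denervated stump or a flank wound closes without regrowth.

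The material was epidermis with the cells sticking to it, from aquatic axolotls (Ambystoma mexicanum). The innervated limb is a forelimb cut off above the elbow, with the end of the humerus trimmed, the denervated limb is the same with the brachial nerves cut, and the flank is a full thickness wound made with a biopsy punch. The innervated limb and the flank were sampled uninjured (day 0) and at days 1, 3 and 7 after injury, and the denervated limb at days 1, 3 and 7, which makes 11 groups of 4 arrays. Each array is a biological replicate in which 2 harvested samples of an animal were pooled. No transgene or mutation is named for any group, and age, sex and batch are not in the labels. Both limb series are set against the same 4 uninjured innervated limb arrays, so their changes share the error of those arrays and are given side by side only. In such bulk samples, fewer cells of a type and less RNA per cell cannot be told apart. Values are log2 expression levels as deposited. A gene is said to have risen or fallen where limma's adjusted p over all 20035 probe sets was under 0.05. Differences are log2 differences ± SE with n = 4 arrays a group.

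The array medians lay between 5.61 and 5.72, and correlations between arrays of a group lay between 0.9761 and 0.994. The epidermal markers EPCAM (12.43 to 13.88), CDH1 (12.00 to 13.06) and the desmosome protein DSP (12.80 to 13.68) were high on every array, with means above those of about 98% of all probe sets. TP63, a transcription factor of basal epidermal cells, lay between 6.15 and 8.07, with a mean above those of 64.4% of probe sets. Muscle and blood cell markers varied between arrays. The mean of 33 skeletal muscle genes, relative to its mean over all arrays, reached 3.45 and 3.07 on 2 innervated limb arrays of day 1 and 3.26 on 1 denervated limb array of day 3. The median SE of a member's difference between 2 groups was 0.111, against 0.123 over all probe sets.

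**Figure D1:**
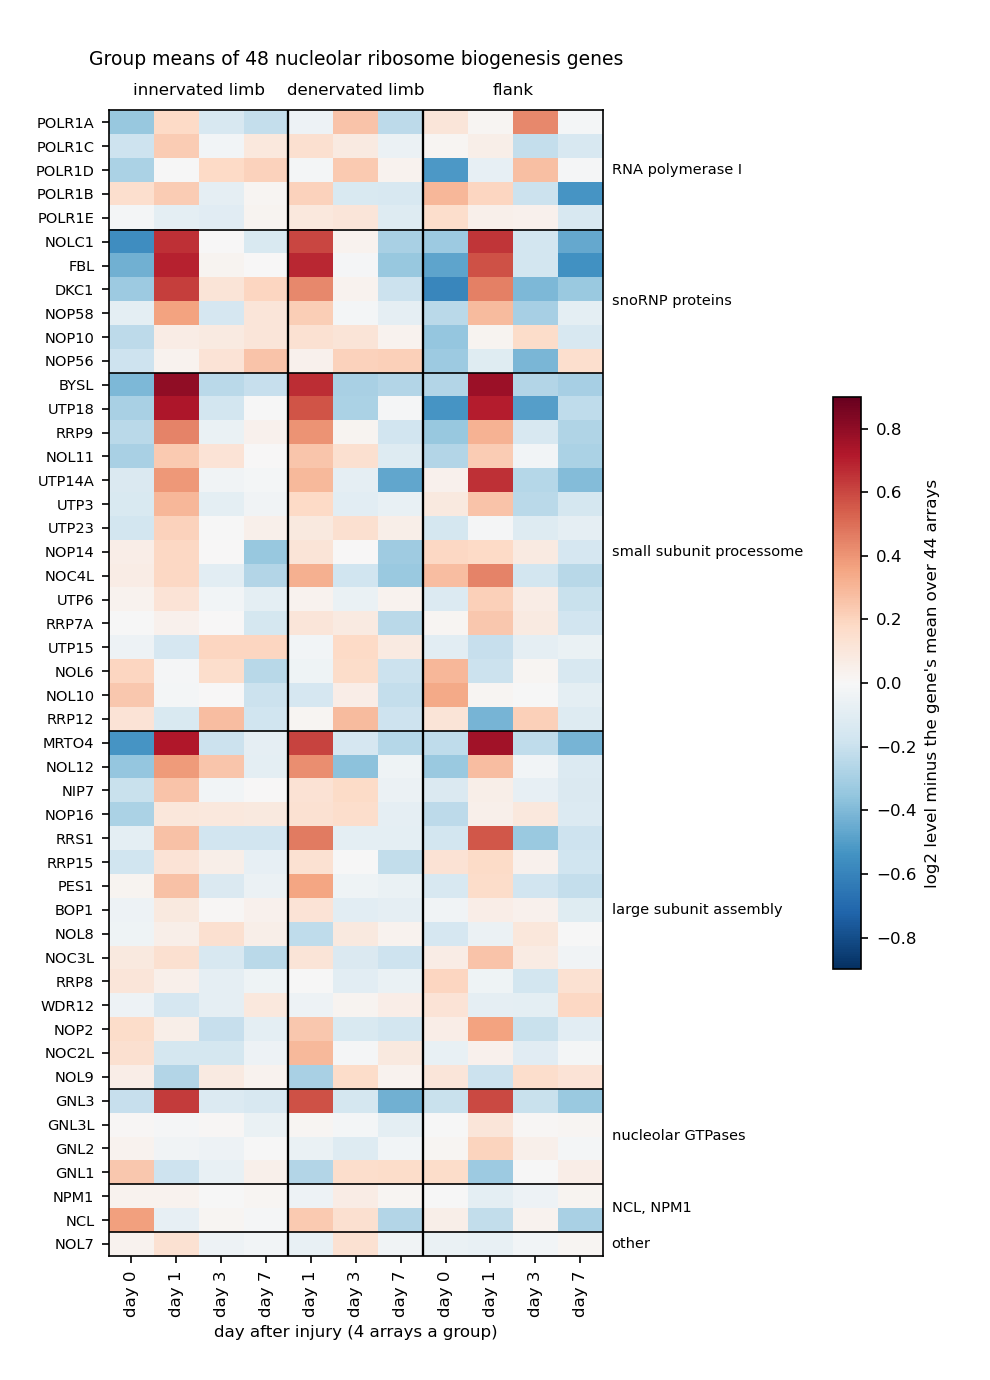
Mean log2 level of each of the 48 genes in the 11 groups, minus the gene's mean over 44 arrays, with genes in rows by role and groups in columns by series and day (0, 1, 3 and 7, denervated limb without day 0). Day 1 columns hold the highest group mean of the series for 30 of 48 genes in the innervated limb, 27 in the denervated limb and 28 in the flank. The same count over all probe sets was not made.

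One day after injury, 5 of 6 genes for snoRNP proteins rose in all 3 settings. Counted in each setting alone, 7 or 8 of 15 assembly factors of the small ribosomal subunit rose, and 5 or 6 of 15 of the large one. The assembly factors that rose were partly different genes between the settings. The largest difference was 2.39-fold. In the innervated limb 19 of 48 genes (39.6%) rose and 3 (6.25%) fell, where 14.7% of all probe sets rose and 21.2% fell. In the denervated limb 21 (43.8%) rose and 3 fell, against a background of 14.1% up and 20.1% down. In the flank 19 (39.6%) rose and 5 (10.4%) fell, against 20.0% up and 21.3% down. Of these rises 15 in the innervated limb, 15 in the denervated limb and 14 in the flank kept their call in all other settings and without each array. The rises of NOP2, PES1, POLR1D, RRP7A and UTP6 in the flank were not kept so, nor were those of POLR1C and UTP14A in either limb series. The median difference over the 48 genes was 0.178 in the innervated limb, 0.238 in the denervated limb and 0.176 in the flank, whereas that of all probe sets was -0.025 in the innervated limb and 0.045 in the flank. Of the risen genes 14 were shared by the innervated limb and the flank, which is 73.7% of either list of 19. These 2 comparisons have no array in common. The overlap over all probe sets was not counted, so this sharing cannot be called particular to these genes.

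Of 6 snoRNP proteins 5 rose in each series. The calls of NOP10 in the innervated limb and of NOP58 in the denervated limb were not kept in all other settings and without each array. FBL (fibrillarin), the methyltransferase of box C/D snoRNPs, had 10.92, 11.26, 11.13 and 11.02 in the innervated limb at day 1, against 10.15, 9.78, 9.79 and 10.09 in the uninjured limb. Its values in the denervated limb at day 1 were 11.14, 11.16, 10.79 and 11.17. The flank had 11.10, 10.96, 11.08 and 10.70 at day 1, against 10.05, 9.67, 10.12 and 9.82 at day 0. Every day 1 value was above every day 0 value of its site. The differences were 1.13 ± 0.13 in the innervated limb (adjusted p = 5.53e-09), 1.11 in the denervated limb (7.92e-09) and 1.04 in the flank (2.43e-08).

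NOLC1 (Nopp140), a chaperone that carries snoRNPs between Cajal bodies and the nucleolus, had 9.19, 9.49, 9.44 and 9.30 in the innervated limb at day 1, against 8.26, 7.92, 7.75 and 8.60 at day 0. The flank had 9.48, 9.44, 9.33 and 9.11 at day 1, against 8.74, 8.04, 8.53 and 8.17 at day 0. The groups did not overlap at either site, although the uninjured arrays were spread widely, with an SD of 0.377 in the limb. Denervated limb arrays of day 1 had 9.28, 9.57, 9.06 and 9.27, also above the uninjured limb. NOLC1 rose by 1.22 ± 0.15 in the innervated limb, by 1.16 in the denervated limb and by 0.97 in the flank. DKC1 (dyskerin), the pseudouridine synthase of box H/ACA snoRNPs, had 11.21, 11.74, 11.56 and 11.24 in the innervated limb at day 1, against 10.86, 10.24, 10.49 and 10.37 at day 0. Its 4 flank values at day 1 were 11.38, 11.33, 11.35 and 11.02, against 10.26, 10.15, 10.39 and 10.10 at day 0. Again no day 1 value reached down to day 0. The rise of DKC1 was 0.95 ± 0.11 in the innervated limb, 0.76 in the denervated limb and 1.04 in the flank. NOP58, a core protein of box C/D snoRNPs and the brightest of the 6, had 11.99, 12.26, 12.08 and 11.95 in the innervated limb at day 1, against 11.67, 11.43, 11.74 and 11.62 at day 0, without overlap. NOP58 rose by 0.46 ± 0.10, 0.31 and 0.53 in the innervated limb, the denervated limb and the flank in that order, and the H/ACA core protein NOP10 by 0.30 ± 0.08, 0.38 and 0.37. The remaining member, the C/D core protein NOP56, passed in none of the 3 series at day 1, with a mean of 11.43 ± 0.15 in the innervated limb at day 1 and 11.21 ± 0.41 at day 0 (SD, n = 4 each).

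Of 15 proteins of the small subunit processome and of 40S maturation, 7 rose in the innervated limb, 8 rose and 1 fell in the denervated limb, and 7 rose and 3 fell in the flank. BYSL (bystin), which acts in the maturation of the small subunit, had 9.39, 10.02, 9.92 and 9.66 in the innervated limb at day 1, against 8.59, 8.39, 8.62 and 8.60 at day 0. The denervated limb had 9.69, 9.73, 9.41 and 9.63 at day 1. The flank had 9.81, 9.73, 9.77 and 9.58 at day 1, against 8.89, 8.44, 8.76 and 8.67 at day 0. The lowest day 1 value of the 3 series was 9.39 and the highest day 0 value 8.89. The difference of 1.20 ± 0.12 in the innervated limb is 2.29-fold (adjusted p = 2.15e-10), and BYSL rose by 1.06 in the denervated limb and by 1.03 in the flank.

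UTP18, a processome protein with WD repeats, had 8.34, 8.11, 8.17 and 8.26 in the flank at day 1, against 6.79, 6.88, 7.30 and 6.98 at day 0. The innervated limb had 8.14, 8.37, 8.35 and 8.12 at day 1, against 7.27, 7.09, 7.42 and 7.12 at day 0. Both pairs of groups were far apart. The rise was 1.23 ± 0.10 in the flank (adjusted p = 4.66e-12), 1.02 in the innervated limb and 0.86 in the denervated limb. RRP9, a protein of the U3 snoRNP that guides the first cleavages, rose by 0.69 ± 0.14 in the innervated limb, 0.65 in the denervated limb and 0.65 in the flank. The processome proteins NOL11 (0.52 ± 0.10, 0.54 and 0.49) and UTP14A (0.52 ± 0.14, 0.42 and 0.62) rose likewise in the innervated limb, the denervated limb and the flank. UTP3 had 10.14, 10.47, 10.30 and 10.04 in the innervated limb at day 1, all above the 9.99, 9.76, 9.65 and 9.82 of day 0. UTP3 rose by 0.43 ± 0.10 and UTP23 by 0.37 ± 0.10 in the innervated limb, whereas in the flank their differences of 0.17 and 0.15 did not pass. UTP6 (0.34 ± 0.14) and RRP7A (0.23 ± 0.09) rose in the flank and NOC4L (0.25 ± 0.10), the partner of NOP14, in the denervated limb. The fallen members were NOL10, by 0.39 ± 0.11 in the denervated limb and by 0.325 in the flank, and, in the flank, NOL6 and RRP12. NOL10 had 8.01, 7.92, 7.78 and 7.95 in the denervated limb at day 1, against 8.34, 8.01, 8.54 and 8.33 in the uninjured limb, so that the groups met at 1 value. RRP12, a factor of pre-40S export, had 6.98, 6.49, 6.71 and 7.38 in the flank at day 1, against 7.54, 7.47, 7.36 and 7.33 at day 0. NOL6 had 7.33, 7.20, 7.19 and 7.07 in the flank at day 1, against 7.96, 7.54, 7.81 and 7.43 at day 0. The day 1 and day 0 values overlapped for RRP12, through its last day 1 array, and not for NOL6. NOL6 fell by 0.49 ± 0.12 and RRP12 by 0.535 ± 0.16. The other 2 probe sets of RRP12, which are dim (means 4.08 and 3.90), had differences of 0.015 and 0.07. Without flank day 0 replicate 1 the fallen genes of this comparison numbered 2 in place of 5.

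Among 15 genes of large subunit assembly, 5 rose and 1 fell in the innervated limb, 6 rose and 1 fell in the denervated limb, and 5 rose and 1 fell in the flank. MRTO4, which holds the place of the stalk protein on the precursor of the large subunit, had 10.34, 10.51, 10.57 and 10.35 in the innervated limb at day 1, against 9.36, 9.07, 9.10 and 9.22 at day 0. Denervated limb arrays of day 1 had 10.30, 10.47, 10.24 and 10.30. In the flank it had 10.64, 10.57, 10.53 and 10.16 at day 1, against 9.59, 9.45, 9.67 and 9.26 at day 0. The lowest day 1 value of the 3 series, 10.16 in the flank, was above the highest day 0 value of 9.67. MRTO4 rose by 1.25 ± 0.10 in the innervated limb, which is 2.39-fold (adjusted p = 1.69e-12), by 1.14 in the denervated limb and by 0.98 in the flank. RRS1, which helps to bring in the 5S particle, had 6.49, 6.18, 6.56 and 6.39 in the flank at day 1, against 5.67, 5.84, 5.44 and 5.77 at day 0, and rose by 0.72 ± 0.13. The same gene had 5.73, 6.31, 6.20 and 6.20 in the innervated limb at day 1, against 5.70, 5.85, 5.61 and 5.86 at day 0. Here 1 of the 4 day 1 arrays lay within the day 0 range, and the rise was 0.36 (adjusted p = 0.0289). NOP16 rose by 0.39 ± 0.07 in the innervated limb, 0.42 in the denervated limb and 0.28 in the flank. NIP7 (0.46 ± 0.09 and 0.33) and RRP15 (0.30 ± 0.07 and 0.32) rose in the innervated and denervated limb, with differences of 0.18 and 0.04 in the flank that did not pass. PES1, of the PeBoW complex that the large subunit needs, rose by 0.33 ± 0.10 in the denervated limb and 0.31 in the flank. Its partners BOP1, which is dim here (mean 4.21), and WDR12 passed in none of the 3. PES1 has a second, dimmer probe set that is not described here.

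The fallen member of large subunit assembly was NOL9, a polynucleotide kinase that acts on the ends of cleaved precursor RNA. It had 7.38, 7.71, 7.40 and 7.50 in the innervated limb at day 1, against 7.91, 7.60, 7.88 and 7.91 at day 0. The denervated limb had 7.63, 7.35, 7.34 and 7.56 at day 1. Flank values were 7.55, 7.49, 7.48 and 7.76 at day 1, against 8.10, 7.96, 7.71 and 7.71 at day 0. The day 1 values were mostly lower, and 1 day 1 array reached into the day 0 range in each setting. NOL9 fell by 0.33 ± 0.09, 0.355 and 0.30 in the innervated limb, the denervated limb and the flank in that order.

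Of 5 measured RNA polymerase I subunits 1 rose in each series at day 1. The median difference of the 5 was 0.28 in the innervated limb, with 4 positive, 0.27 in the denervated limb, with 5 positive, and -0.095 in the flank, with 2 positive. In the limb this was POLR1C, a subunit that polymerase I shares with polymerase III. It had 6.45, 6.88, 6.89 and 6.81 in the innervated limb at day 1, against 6.48, 6.24, 6.40 and 6.24 at day 0, so that 3 of 4 arrays lay above the day 0 range. POLR1C rose by 0.42 ± 0.12 in the innervated limb and 0.33 in the denervated limb, and its difference in the flank was 0.04. In the flank the subunit that passed was POLR1D, also shared with polymerase III, which rose by 0.44 ± 0.12. POLR1A, the largest subunit, had a spread between replicates (within-group SD of 0.563) too wide for a difference of this size to be detected.

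The nucleolar GTPases divided, with GNL3 up and GNL1 down in each series and GNL2 and GNL3L not passing. The probe sets of GNL2 and GNL3L are dim (means 3.89 and 3.40, lowest value of all arrays 2.41). Their not passing therefore says little about these 2 genes. GNL3 (nucleostemin), a GTPase named for its high level in stem cells, had 10.18, 10.52, 10.53 and 10.42 in the innervated limb at day 1, against 9.65, 9.30, 9.65 and 9.69 at day 0. The flank had 10.36, 10.28, 10.43 and 10.42 at day 1, against 9.83, 9.47, 9.71 and 9.32 at day 0. The groups were separate at both sites. GNL3 rose by 0.84 ± 0.10 in the innervated limb, 0.78 in the denervated limb and 0.79 in the flank. GNL1 had 6.49, 6.69, 6.36 and 6.51 in the flank at day 1, against 7.19, 6.86, 7.34 and 6.65 at day 0. The innervated limb had 6.35, 6.99, 6.57 and 6.71 at day 1, against 6.62, 7.25, 7.18 and 7.29 at day 0. The denervated limb had 6.65, 6.55, 6.14 and 6.98 at day 1. The groups overlapped in all 3 series, and GNL1 fell by 0.50 ± 0.17 in the flank, by 0.505 in the denervated limb and by 0.43 in the innervated limb (adjusted p = 0.0474), the last a call that was kept in 3 of 10 other settings.

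Neither of the abundant nucleolar proteins rose. NPM1 (nucleophosmin), a histone and ribosome chaperone, stayed between group means of 13.93 and 14.09 over all 11 groups, and it passed in none of the 22 comparisons. With a mean of 14.02 it lies near the top of the scale, where the highest value of any probe set was 15.04. It had 14.12, 14.05, 14.08 and 13.96 in the innervated limb at day 1, against 14.05, 13.99, 14.06 and 14.10 at day 0. NCL (nucleolin), which binds the precursor RNA, had 10.67, 10.78, 10.82 and 10.84 in the innervated limb at day 1, against 11.05, 11.35, 10.97 and 11.52 at day 0. All 4 day 1 values were below the day 0 values, and NCL fell by 0.45 ± 0.13 (adjusted p = 0.00622). Its day 1 values in the denervated limb were 11.02, 11.07, 10.92 and 11.33, within or near the uninjured range, and the difference did not pass. Both NPM1 and NCL have a second, dimmer probe set that is not described here.

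**Figure D2:**
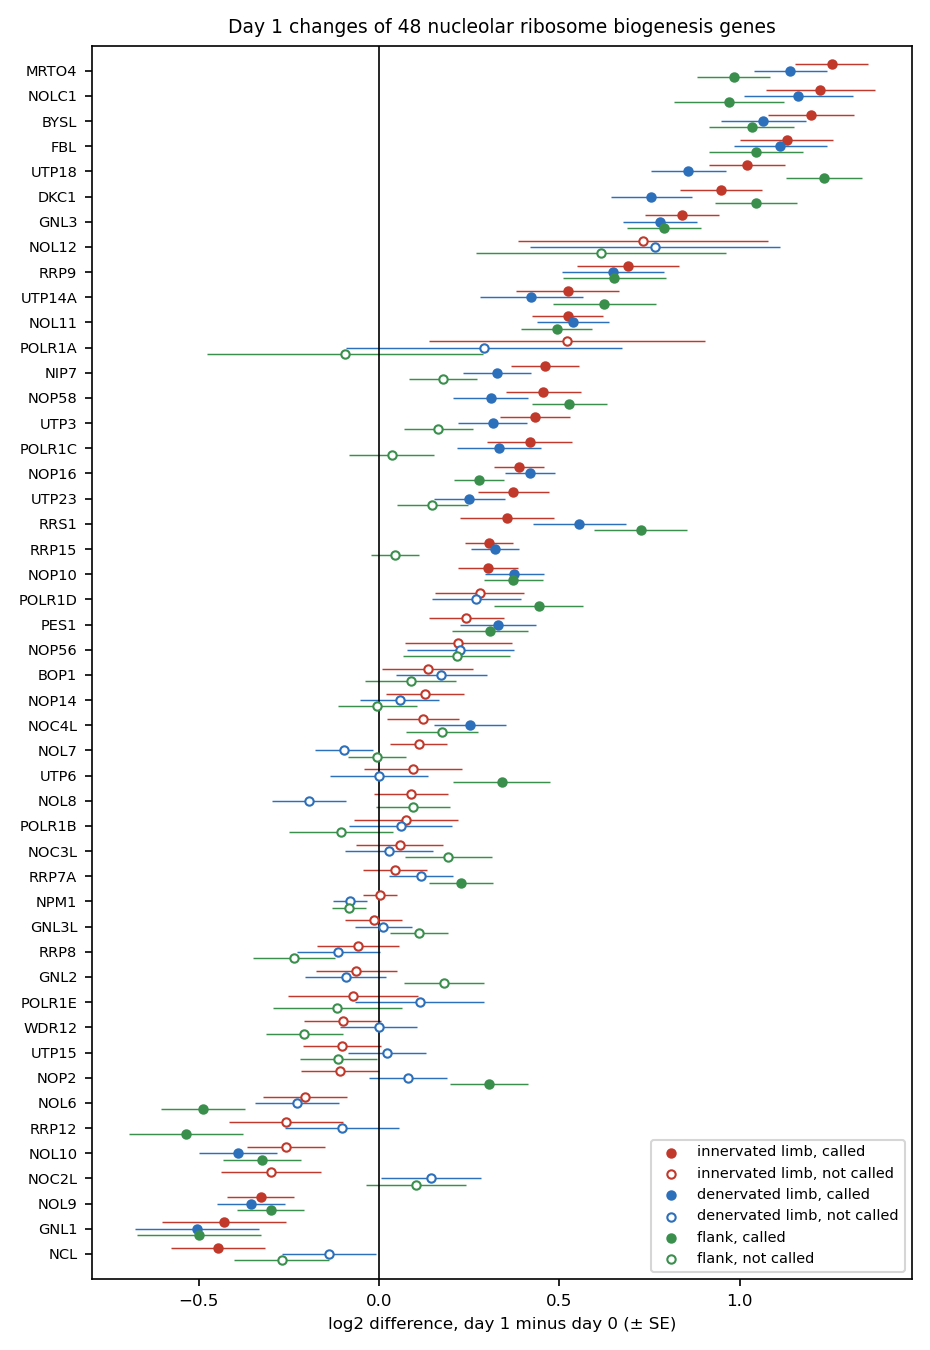
Log2 difference between day 1 and day 0 for each of the 48 genes (points, with SE as bars, n = 4 arrays a group) in the innervated limb, the denervated limb and the flank. Filled points passed at an adjusted p under 0.05, and MRTO4, NOLC1, BYSL, FBL and UTP18 lie near or above 1 in all 3 series.

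**Figure D3:**
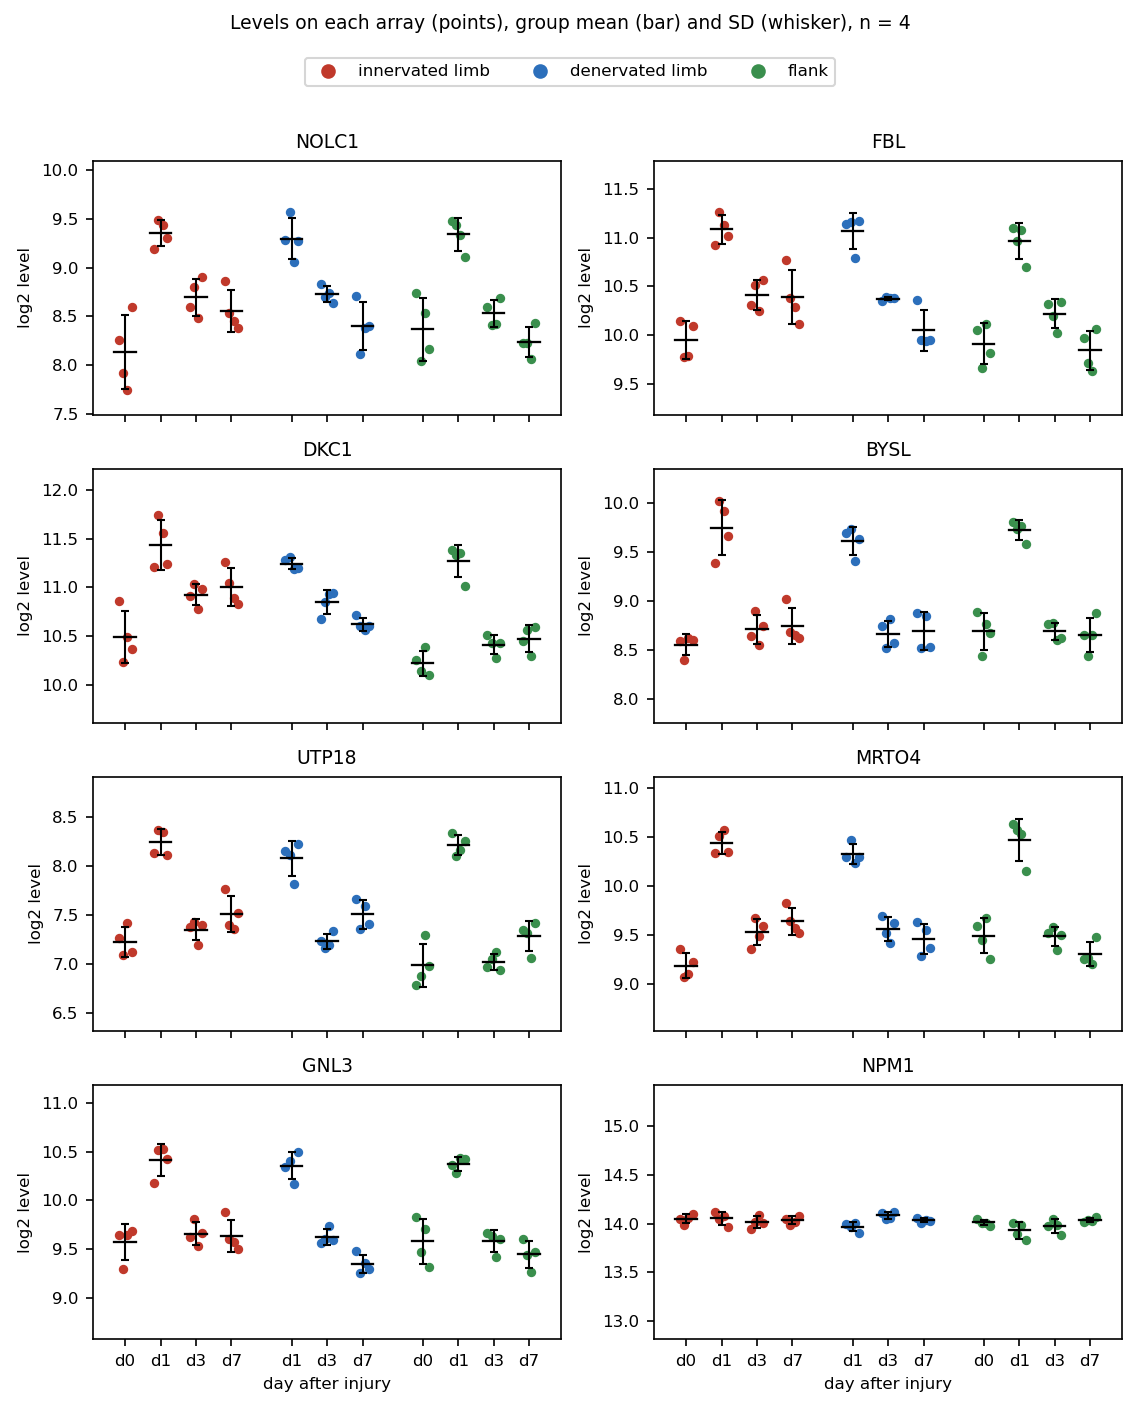
Log2 level on every array for NOLC1, FBL, DKC1, BYSL, UTP18, MRTO4, GNL3 and NPM1, by series and day (points are arrays, the bar is the mean and the whisker the SD, n = 4). All panels span the same number of log2 units, and the day 1 arrays of the first 7 genes stand above the day 0 arrays of their site while NPM1 is level.

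Markers of other cells moved at day 1 as well. Over all probe sets 14.7% rose and 21.2% fell in the innervated limb at that day. The shares were 14.1% and 20.1% in the denervated limb and 20.0% and 21.3% in the flank. Several of the counts that follow are near these shares and are no result about their lists. Of 33 skeletal muscle genes 16 rose and none fell in the innervated limb, 10 rose in the denervated limb, and 1 rose and 3 fell in the flank. The list's array means, relative to its mean over all arrays, ranged from -0.106 to 3.45 in the innervated limb at day 1, against -1.29 to 1.2 at day 0, and from -0.294 to 1.38 in the flank at day 1, against -0.0202 to 2.53 at day 0. With the muscle mean as a covariate, 18 of the 48 nucleolar genes rose in the innervated limb, 18 in the denervated limb and 16 in the flank. The muscle mean itself differed between the groups compared, so the part of muscle in the rise cannot be told apart by this fit. Of 18 phagocyte genes 7 rose in the innervated limb, 6 in the denervated limb and 9 in the flank, where 4 also fell. Their array means ranged from -0.575 to 0.357 in the innervated limb at day 1, against -0.918 to -0.575 at day 0. In the flank they ranged from -0.539 to -0.0598 at day 1, against -0.962 to -0.783 at day 0. Of 8 erythrocyte and thrombocyte genes 6 rose in each limb series and 1 fell in the flank. Of 22 fibroblast and dermal matrix genes 6 rose in the innervated limb, 4 rose in the denervated limb, and 4 rose and 10 fell in the flank. The array means of this list ranged from -1.07 to -0.6 in the flank at day 1, against -0.773 to 1.0 at day 0. Of 12 endothelial genes 3, 2 and 1 rose in the innervated limb, the denervated limb and the flank, and 4 fell in the flank. Of 26 epidermal genes 10 rose and 6 fell in the innervated limb, 13 rose and 6 fell in the denervated limb, and 14 rose and 5 fell in the flank. Their array means ranged from 0.0368 to 0.304 in the flank at day 1, against -0.321 to -0.106 at day 0. Limb means of this list ranged from -0.0101 to 0.201 (innervated) and 0.198 to 0.375 (denervated) at day 1, against -0.115 to 0.0272 in the uninjured limb, so that only the innervated limb overlapped with day 0. The part of epidermal cells, fibroblasts, endothelium, phagocytes and blood cells in the rise of the nucleolar genes was not tested.

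Few genes of ribosomal proteins or of cell division rose at day 1. Of 58 cytosolic ribosomal protein genes 1 rose and 7 fell in the innervated limb, 1 rose and 6 fell in the denervated limb, and 9 fell in the flank, with median differences of -0.05, -0.06 and -0.04. Of 54 genes of mitosis, 35 fell in the innervated limb (median -0.82), 20 in the denervated limb and 36 in the flank, where 1 rose. Of 43 genes of DNA replication, 12 fell in the innervated limb, 10 in the denervated limb and 23 in the flank, and 1 rose in each. Among all probe sets 14.7% rose and 21.2% fell in the innervated limb. The shares were 14.1% and 20.1% in the denervated limb and 20.0% and 21.3% in the flank. Falls of ribosomal protein genes lie below these shares, and those of replication genes in both limb series are not far above them. Those falls are no result about the lists as groups. The falls of mitosis genes, and of replication genes in the flank, lie well above the shares.

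The remaining factors of ribosome building, a list of 93 genes outside the name rule, moved in both directions. In the innervated limb 27 rose and 15 fell at day 1, in the denervated limb 26 rose and 15 fell, and in the flank 26 rose and 21 fell. Over all probe sets 14.7% rose and 21.2% fell in the innervated limb. The shares were 14.1% and 20.1% in the denervated limb and 20.0% and 21.3% in the flank. The counts of risen genes lie above these shares. Those of fallen genes are near or below them and are no result about the list as a group. The list's mean, relative to that over all arrays, moved little. It was 0.0371 in the innervated and -0.00357 in the denervated limb at day 1, against -0.0372 in the uninjured limb. In the flank it was 0.033 at day 1, against 0.0235 at day 0. Day 1 arrays overlapped with day 0 arrays in each series. The processome proteins WDR43 (0.935 ± 0.11 in the innervated limb, 0.71 in the denervated limb and 1.06 in the flank), WDR75 (0.835 ± 0.09, 0.63 and 0.335) and MPHOSPH10 (0.72 ± 0.11, 0.57 and 0.80) rose with the members of the same complex above. EXOSC3, a cap protein of the RNA exosome that trims precursor RNA, rose by 0.60 ± 0.08, 0.55 and 0.79 in the innervated limb, the denervated limb and the flank in that order. NHP2, the H/ACA partner of DKC1 and NOP10, rose by 0.31 ± 0.07, 0.41 and 0.61 in the same order. PARN, a ribonuclease that trims RNA tails, fell by 0.75 ± 0.12, 0.885 and 0.91. TAF1D, of the SL1 factor that places polymerase I on the promoter, fell by 0.73 ± 0.13, 0.85 and 1.50.

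**Figure D4:**
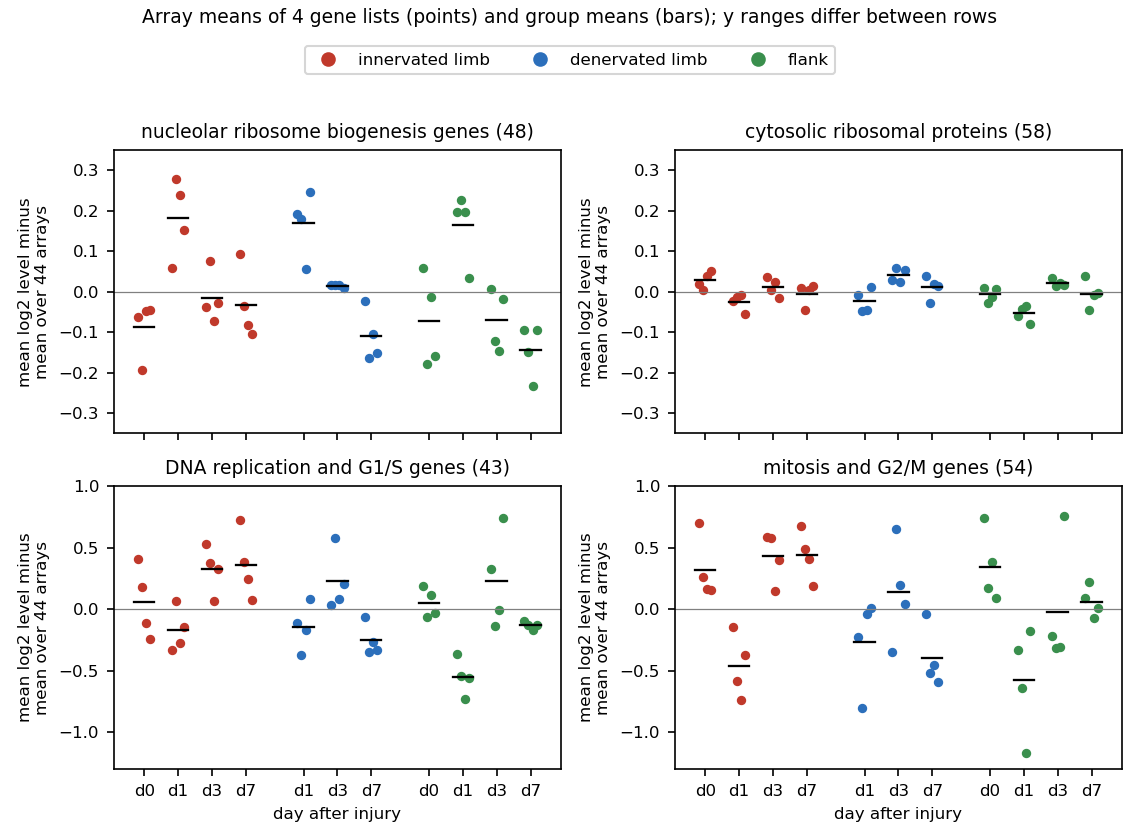
Mean log2 level per array (relative to the mean over 44 arrays) of the 48 nucleolar genes, 58 cytosolic ribosomal proteins, 43 replication genes and 54 mitosis genes, by series and day, with 1 point for each array and y ranges that differ between the rows of panels. The group means of the nucleolar genes are highest at day 1. The 12 arrays of that day lie between 0.0346 and 0.28, and they overlap with arrays of other days, which reach 0.0933. Mitosis genes lie between -1.17 and 0.0108 on the day 1 arrays.

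By day 3 many of the risen genes were lower again. Against day 1, 15 of 48 genes fell and 3 rose in the innervated limb (background 10.5% down and 15.8% up), 14 fell and 3 rose in the denervated limb (11.7% down, 15.7% up), and 16 fell and 3 rose in the flank (12.1% down, 14.1% up). BYSL fell by 1.04 ± 0.12 in the innervated limb, by 0.955 in the denervated limb and by 1.03 in the flank, and UTP18 by 0.89 ± 0.10, 0.85 and 1.20 in that order. MRTO4 fell by 0.915 ± 0.10 in the innervated limb, 0.76 in the denervated limb and 0.99 in the flank, and GNL3 by 0.75 ± 0.10, 0.73 and 0.79. These falls share the day 1 arrays with the rises, so a high day 1 array enters both. NOL9, which had fallen at day 1, rose by 0.345 ± 0.09, 0.46 and 0.35. RRP12 rose in the flank (0.63 ± 0.16) and in the innervated limb (0.415, adjusted p = 0.0472). The other genes that rose were UTP15 in the innervated limb, NOL7 and NOL8 in the denervated limb, and POLR1D in the flank. NOL7, a nucleolar protein, had 9.83, 9.80, 9.59 and 9.61 in the denervated limb at day 3, against 9.48, 9.51, 9.66 and 9.35 at day 1, with overlap, and rose by 0.21 ± 0.08. The risen number was 1 without innervated limb day 1 replicate 1 or day 3 replicate 3, and in the denervated limb it was 1 without day 3 replicate 1.

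Against day 0, snoRNP proteins were still higher in both limb series at day 3, and more members passed upward in the limb than in the flank. In the innervated limb 9 genes (18.8%) rose and 2 fell, against a background of 12.5% up and 13.4% down. In the denervated limb 12 (25%) rose and 1 fell, against 12.4% and 14.1%. In the flank 3 (6.25%) rose and 5 (10.4%) fell, against 12.6% and 14.8%. The difference between the changes of limb and flank was itself called for 1 gene at this day, RRP15, given further on. Of 18 phagocyte genes 8 rose in the innervated limb at day 3, 12 in the denervated limb and 13 in the flank. Their mean, relative to that over all arrays, was -0.0136 in the innervated limb and 0.197 in the denervated limb at day 3, against -0.772 in the uninjured limb, and 0.162 in the flank at day 3, against -0.888 at day 0. Of 33 muscle genes 1 fell in each limb series and 12 in the flank, and the list's mean in the innervated limb was -1.12 at day 3, against -0.123 at day 0. The part of these cells in the day 3 values was not tested. The snoRNP proteins had 4 of 6 members up in the innervated limb, 5 in the denervated limb and 1 in the flank. NOLC1 had 8.60, 8.80, 8.48 and 8.90 in the innervated limb at day 3 and 8.83, 8.70, 8.74 and 8.64 in the denervated limb, against 8.26, 7.92, 7.75 and 8.60 in the uninjured limb. The innervated values overlapped the uninjured ones and the denervated values lay just above them. NOLC1 rose by 0.56 ± 0.15 in the innervated limb and 0.59 in the denervated limb, and its flank difference of 0.16 did not pass. FBL had 10.31, 10.51, 10.25 and 10.57 in the innervated limb at day 3, all above the uninjured values, and rose by 0.46 ± 0.13, with 0.42 in the denervated limb and 0.30 in the flank, which did not pass.

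POLR1D was the member with the largest difference in the flank at day 3, where it had 9.04, 8.66, 8.84 and 8.92, against 8.28, 7.71, 8.34 and 7.98 at day 0. The innervated limb had 8.91, 8.78, 8.59 and 8.81 at day 3, against 8.36, 8.19, 8.50 and 8.19 at day 0. The denervated limb had 8.80, 8.75, 8.74 and 9.03 at day 3. None of the 3 day 3 groups overlapped with the uninjured arrays of its site. POLR1D rose by 0.79 ± 0.12 in the flank, 0.46 in the innervated limb and 0.52 in the denervated limb. A second POLR1D probe set, with a mean of 8.36 over all arrays, passed in no change from day 0, with differences at day 3 of 0.11 in the innervated limb and -0.18 in the flank, so the probe sets of this gene disagree. NOP10 had 11.07, 10.99, 10.92 and 11.12 in the flank at day 3, against 10.57, 10.42, 10.50 and 10.53 at day 0, without overlap, and rose by 0.52 ± 0.08. NOP16 had 11.13, 11.14, 11.12 and 11.10 in the denervated limb at day 3, against 10.75, 10.67, 10.69 and 10.62 in the uninjured limb. The flank had 11.13, 11.05, 10.98 and 11.08 at day 3, against 10.78, 10.71, 10.78 and 10.66 at day 0. These groups did not overlap, and NOP16 rose by 0.44 ± 0.07 in the denervated limb, 0.38 in the innervated limb and 0.33 in the flank. MRTO4 rose by 0.34 ± 0.10 and 0.38 in the innervated and denervated limb, with a difference of -0.01 in the flank.

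The fallen genes at day 3 were few and small in size. NOP2, an rRNA methyltransferase, had 5.49, 5.64, 5.49 and 5.55 in the innervated limb at day 3, against 5.79, 5.86, 6.18 and 5.81 at day 0, without overlap, and fell by 0.37 ± 0.11. NOP2 also fell in the denervated limb, by 0.30, with 5.58, 5.60, 5.40 and 5.86 at day 3. It has a second, dimmer probe set that is not described here. NCL had 11.02, 10.98, 10.93 and 10.55 in the innervated limb at day 3, against 11.05, 11.35, 10.97 and 11.52 at day 0, and fell by 0.35 ± 0.13 although the groups overlapped. None of these limb falls kept its call in all other settings, and none kept it without each array. POLR1B, the catalytic partner of POLR1A, had 6.14, 6.21, 5.99 and 6.44 in the flank at day 3, against 7.12, 6.40, 6.62 and 6.60 at day 0. Its last day 3 array alone reached the day 0 range, and POLR1B fell by 0.49 ± 0.14. NOC4L had 7.71, 7.68, 7.46 and 7.67 in the flank at day 3, against 8.30, 8.11, 7.95 and 7.93 at day 0, without overlap, and fell by 0.44 ± 0.10. RRP8, an rRNA methyltransferase, had 8.53, 8.70, 8.69 and 8.52 in the flank at day 3, against 8.93, 9.01, 8.82 and 9.14 at day 0, also without overlap, and fell by 0.365 ± 0.11. NOL10 (0.34 ± 0.11) and UTP3 (0.33 ± 0.10) fell in the flank as well. Without flank day 0 replicate 1 the fallen genes of the flank numbered 2 in place of 5.

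At day 7 snoRNP proteins and MRTO4 were higher than before injury in the innervated limb. Against day 0, 10 of 48 genes (20.8%) rose and 6 (12.5%) fell in the innervated limb, where 12.8% of all probe sets rose and 13.8% fell. In the denervated limb 5 (10.4%) rose and 7 (14.6%) fell, against 13.1% and 13.9%. In the flank 3 (6.25%) rose and 7 (14.6%) fell, against 11.5% and 12.2%. The shares of fallen genes were near the background, so they are no result about these genes as a group. The median difference was 0.09, -0.00625 and -0.0625 in that order. It was 0.0462 without innervated limb day 7 replicate 1, 0.0225 in the denervated limb without day 7 replicate 2, and -0.0175 in the flank without day 7 replicate 3. The risen number was 5 without innervated limb day 7 replicate 1 and 6 without innervated limb day 0 replicate 2. It was 0 in the denervated limb without day 7 replicate 1, and in the flank 1 without day 0 replicate 2 or replicate 4. Innervated limb arrays of days 7 and 0 with the same replicate number deviated together, although the labels do not say what a number marks. With the number as a block in these arrays alone, 8 genes rose and 3 fell (NOL6, NOL10 and NOC4L). In that fit NCL, NOC3L, NOP14, NOLC1, NOP56 and UTP18 no longer passed.

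At the same day 11 of 18 phagocyte genes rose in the innervated limb, 15 in the denervated limb and 12 in the flank, and 6, 7 and 20 of 33 muscle genes fell. Over all probe sets 12.8%, 13.1% and 11.5% rose in that order, and 13.8%, 13.9% and 12.2% fell. The counts of fallen muscle genes in both limb series are not far above these shares, but the list's mean was much lower. Relative to that over all arrays, it was -1.55 in the innervated and -1.58 in the denervated limb at day 7. In the uninjured limb it was -0.123, with arrays spread from -1.29 to 1.2. The flank had -0.726 at day 7, against 1.49 at day 0. The part of these cells in the changes of the nucleolar genes was not tested.

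In the innervated limb at day 7 the snoRNP proteins again held 5 of the 10 risen genes, with 5 of 6 measured up, against 2 in the denervated limb and 1 in the flank. Of these 5, only DKC1 and NOP10 kept their call in all other settings and without each array. No rise in the denervated limb or the flank was kept so. When innervated and denervated limb, or the innervated and flank changes, were compared directly at day 7, no snoRNP gene passed. DKC1 had 11.26, 11.05, 10.89 and 10.83 in the innervated limb at day 7, against 10.86, 10.24, 10.49 and 10.37 at day 0. The denervated limb had 10.72, 10.61, 10.56 and 10.61 at day 7. Of the innervated values 3 lay above all uninjured ones and the fourth just below the highest of them, and the denervated values lay among the uninjured ones. DKC1 rose by 0.52 ± 0.11 in the innervated limb (adjusted p = 0.000449), and its differences of 0.14 in the denervated limb and 0.25 in the flank did not pass. FBL rose by 0.44 ± 0.13 and NOLC1 by 0.42 ± 0.15 in the innervated limb, with 0.10 and 0.27 in the denervated limb and -0.07 and -0.13 in the flank, none of which passed. NOP10 rose by 0.345 ± 0.08 in the innervated limb and 0.27 in the denervated limb. NOP56, which had not passed at day 1, rose in all 3. It had 11.58, 11.73, 11.49 and 11.64 in the denervated limb at day 7, against 11.07, 10.74, 11.70 and 11.33 in the uninjured limb. In the flank it had 11.62, 11.47, 11.46 and 11.64 at day 7, against 11.37, 10.81, 11.38 and 10.73 at day 0. The flank groups did not overlap, while 1 uninjured limb value lay within the denervated range. The rise of NOP56 was 0.445 ± 0.15 in the innervated limb, 0.40 in the denervated limb and 0.475 in the flank.

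MRTO4 had 9.83, 9.64, 9.57 and 9.52 in the innervated limb at day 7, against 9.36, 9.07, 9.10 and 9.22 at day 0. The denervated limb had 9.63, 9.29, 9.55 and 9.37. The flank had 9.26, 9.27, 9.20 and 9.48 at day 7, against 9.59, 9.45, 9.67 and 9.26 at day 0. The innervated values were all above the uninjured ones, and the flank values lay at the low end of theirs. MRTO4 rose by 0.45 ± 0.10 in the innervated limb (adjusted p = 0.000583) and 0.27 in the denervated limb (0.0408), and its flank difference of -0.19 did not pass. NOP16 rose by 0.37 ± 0.07 in the innervated limb and 0.20 in the denervated limb, and NOL11 by 0.295 ± 0.10 in the innervated limb. POLR1D had 8.86, 8.78, 8.79 and 8.79 in the innervated limb at day 7, against 8.36, 8.19, 8.50 and 8.19 at day 0. The flank had 8.87, 8.33, 8.53 and 8.62 at day 7, against 8.28, 7.71, 8.34 and 7.98 at day 0. The limb groups did not overlap and the flank groups met at 1 array. POLR1D rose by 0.495 ± 0.12 in the innervated limb and 0.51 in the flank, its difference of 0.315 in the denervated limb did not pass (adjusted p = 0.0545), and its second probe set passed in none of these. UTP18 had 7.77, 7.40, 7.36 and 7.52 in the innervated limb, 7.67, 7.36, 7.59 and 7.41 in the denervated limb, and 7.35, 7.32, 7.06 and 7.42 in the flank at day 7. It rose by about the same amount in each, by 0.29 ± 0.10 in the innervated limb, 0.28 in the denervated limb and 0.30 in the flank.

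Of 15 processome genes 4 fell in the innervated limb at day 7 and 5 in each of the others. The calls kept in all other settings and without each array were NOL6, NOL10 and NOC4L in the innervated limb. In the denervated limb they were NOL10 and NOC4L, and in the flank NOL6 and NOC4L. NOL6 had 7.32, 7.10, 7.02 and 7.11 in the innervated limb at day 7, against 7.54, 7.27, 7.75 and 7.76 at day 0. In the flank it had 7.28, 7.35, 7.01 and 7.33 at day 7, against 7.96, 7.54, 7.81 and 7.43 at day 0. The flank groups were separate and the limb groups overlapped by 1 array. NOL6 fell by 0.44 ± 0.12 in the innervated limb, 0.38 in the denervated limb and 0.44 in the flank. NOL10 had 7.92, 7.88, 7.78 and 7.91 in the innervated limb at day 7 and 8.06, 7.72, 7.83 and 7.78 in the denervated limb, against 8.34, 8.01, 8.54 and 8.33 in the uninjured limb. The innervated group did not overlap with the uninjured one, and NOL10 fell by 0.43 ± 0.11 in the innervated limb, 0.46 in the denervated limb and 0.425 in the flank. A second NOL10 probe set, with a mean of 7.45, passed in the denervated limb at day 7 (-0.40) and not in the innervated limb (-0.14) or the flank (0.07). NOC4L had 7.65, 7.49, 7.53 and 7.46 in the innervated limb at day 7, against 7.96, 7.70, 7.97 and 7.83 at day 0. Its flank values were 7.49, 7.64, 7.53 and 7.52 at day 7, against 8.30, 8.11, 7.95 and 7.93 at day 0. Neither pair overlapped. In the denervated limb at day 7 its values were 7.67, 7.30, 7.57 and 7.31. NOC4L fell by 0.33 ± 0.10 in the innervated limb, 0.40 in the denervated limb and 0.53 in the flank, and its partner NOP14 by 0.40 ± 0.11, 0.38 and 0.33. NOP14 had 7.84, 7.72, 7.65 and 7.73 in the innervated limb at day 7, against 8.07, 7.81, 8.48 and 8.17 at day 0, with an overlap of 1 array. NOL6, NOL10, NOC4L and NOP14 are the fallen genes that the innervated limb shared with the flank, 66.7% of the 6 in the innervated limb and 57.1% of the 7 in the flank. Here too the overlap over all probe sets was not counted.

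NCL was lower at day 7 than at day 0 at both sites, and the fall passed in the limb alone. It had 10.71, 10.53, 10.44 and 10.67 in the denervated limb, against 11.05, 11.35, 10.97 and 11.52 in the uninjured limb, without overlap, and fell by 0.635 ± 0.13 (adjusted p = 0.000197). The innervated limb had 11.28, 10.79, 10.60 and 10.69, of which the first lies within the uninjured range, and fell by 0.38 (adjusted p = 0.0252). The flank difference of -0.34 did not pass, although the flank mean of 10.56 at day 7 was the lowest of the 11 groups. The uninjured limb, with a mean of 11.22, was the highest group, against 10.90 in the uninjured flank. NOC3L, of large subunit assembly, fell by 0.33 ± 0.12 in the innervated limb, and NOP2 by 0.33 ± 0.11 and RRP7A by 0.23 ± 0.09 in the denervated limb. In the flank POLR1B fell by 0.83 ± 0.14, UTP14A by 0.43 ± 0.14 and RRP15 by 0.31 ± 0.07.

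From day 3 to day 7 few members moved. In the innervated limb NOL6 fell by 0.41 ± 0.12 and none rose (background 1.69% down and 1.83% up). Denervated limb arrays showed lower NOP16, RRP15 and RRP7A, which fell by 0.235, 0.22 and 0.32, and none rose (2.64% down, 3.85% up). In the flank NOP56 rose by 0.565 ± 0.15, and NOP10, NOP16 and RRP15 fell by 0.315, 0.215 and 0.22 (7.81% up, 4.66% down).

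The comparison of innervated with denervated limb asks whether the nerve supply alters the wound epidermis, and no member passed at any of the 3 days. The medians of the differences were 0.0288 at day 1, -0.0325 at day 3 and 0.0488 at day 7, and at an unadjusted p under 0.05 there were 4, 2 and 6 members. Without 1 array at a time these medians ranged from -0.0158 (without denervated limb day 1 replicate 3) to 0.0738 (without innervated limb day 1 replicate 1) at day 1 and from -0.0579 to -0.0146 at day 3. At day 7 they ranged from 0.0108 (without innervated limb day 7 replicate 1) to 0.0817 (without denervated limb day 7 replicate 1). Few genes of any kind passed in these comparisons, 0.0150% up and 0.00499% down at day 1, 0.230% and 0.0349% at day 3, and 0.804% and 0.893% at day 7. The median half-width of the 95% intervals was 0.224, and the interval lay within 0.5 of 0 for 43 of 48 genes at day 1, 44 at day 3 and 41 at day 7. Differences beyond 1 lay outside the interval for all 48 genes at day 7. NOL12 and POLR1A had the widest intervals. The members with an unadjusted p under 0.05 went in both directions. At day 1, NOC2L (-0.445 ± 0.14) and NCL (-0.31 ± 0.13, without overlap) were lower in the innervated limb, and NOL8 (0.285) and NOL7 (0.21) higher. At day 3, NIP7 (-0.20) and NOL7 (-0.19) were lower. The 6 at day 7 were all higher.

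The differences at day 7 were positive for 37 of 48 genes (77.1%), where 48.2% of all probe sets were positive. The genes share arrays, and this share carries no test. DKC1, at 11.26, 11.05, 10.89 and 10.83 in the innervated limb and 10.72, 10.61, 10.56 and 10.61 in the denervated limb, did not overlap. Its difference was 0.38 ± 0.11 with an adjusted p of 0.0732. UTP14A had 6.43, 6.39, 6.49 and 6.40 in the innervated limb at day 7, against 6.06, 5.91, 6.17 and 5.79 in the denervated limb, also without overlap, with a difference of 0.445 ± 0.14 (adjusted p = 0.108). GNL3 had 9.88, 9.60, 9.57 and 9.50 in the innervated limb, against 9.48, 9.26, 9.36 and 9.30 in the denervated limb. Its groups almost met, and the difference was 0.29 ± 0.10 (adjusted p = 0.174). FBL differed by 0.34 ± 0.13 (adjusted p = 0.22), NOP16 by 0.165 ± 0.07 and RRP15 by 0.15 ± 0.07, also without passing. With arrays weighted by their quality in limma, DKC1 (0.38, adjusted p = 0.0204) and UTP14A (0.44, adjusted p = 0.0334) passed.

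Other lists did differ between innervated and denervated limb at day 7. Of 54 mitosis genes 17 were higher in the innervated limb (median 0.97), as were 15 of 43 replication genes (median 0.62). Of 18 phagocyte genes 5 were lower in the innervated limb, where the array means of the list ranged from -0.0643 to 0.619, against 0.997 to 1.21 in the denervated limb. The muscle list had no called gene (median 0.0025). MYCN, a MYC family factor that drives growth genes, was higher in the innervated limb by 1.17 ± 0.24 (adjusted p = 0.00628). The part of phagocytes in the differences of the nucleolar genes was not tested.

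**Figure D5:**
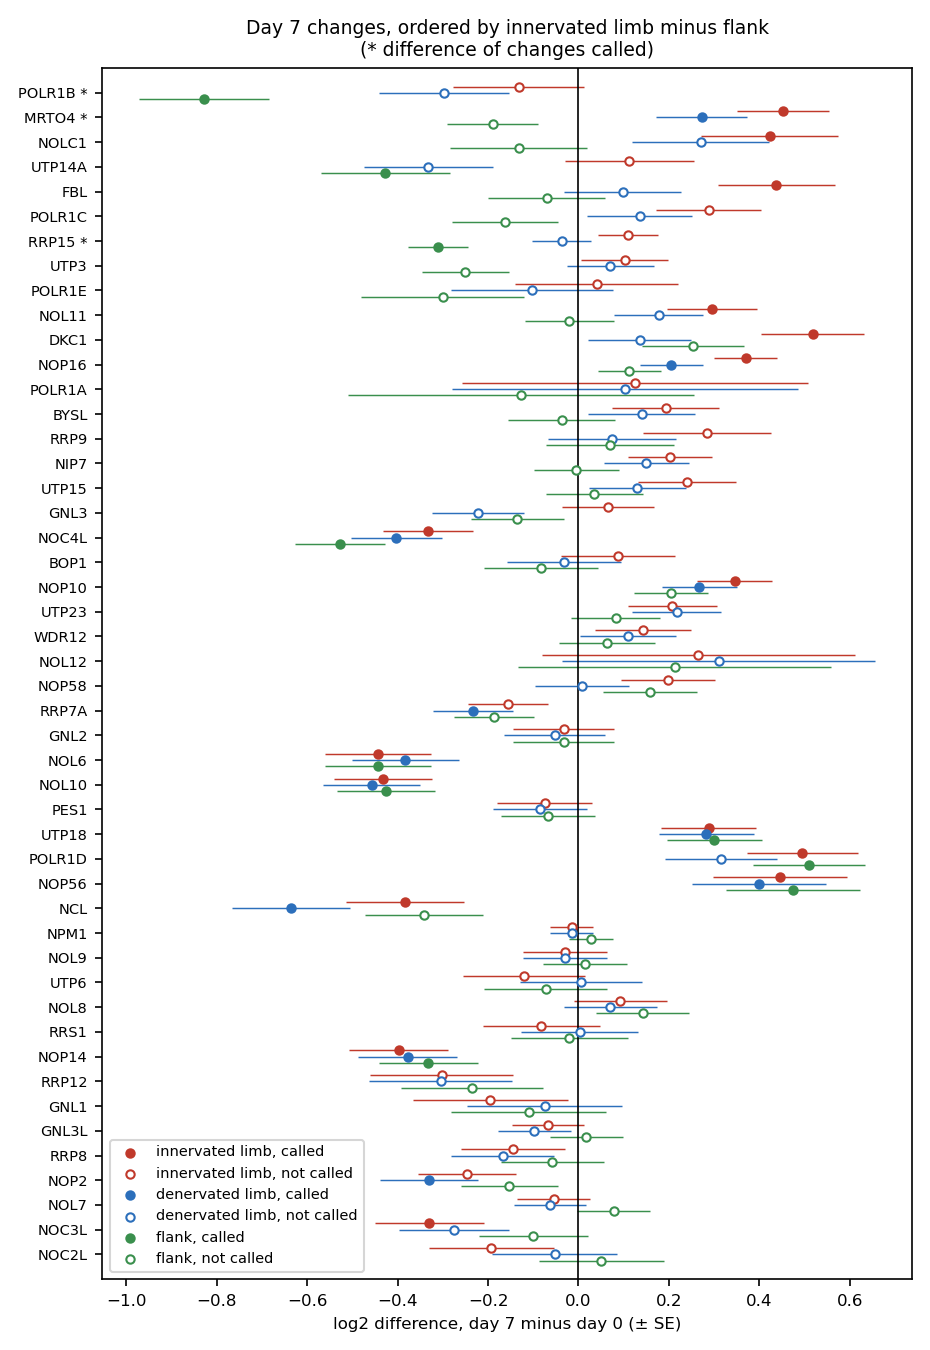
Log2 difference between day 7 and day 0 for each of the 48 genes (points, with SE as bars, n = 4 arrays a group) in the innervated limb, the denervated limb and the flank, ordered by the innervated minus the flank change. Filled points passed at an adjusted p under 0.05, and the asterisks mark MRTO4, POLR1B and RRP15, for which the difference between the innervated and flank changes passed.

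The change in the amputated limb was set against that in the flank wound by subtracting the flank change from the innervated change. At day 1 no member passed (background 2.82% up and 2.43% down), with 5 at an unadjusted p under 0.05. The 95% interval lay within 0.5 of 0 for 24 of 48 genes at that day. At day 3 RRP15, of large subunit assembly, passed with 0.33 ± 0.09 (adjusted p = 0.0442), where 1.97% of probe sets were up and 1.18% down. This call was kept in 6 of 10 other settings. At day 7 MRTO4, POLR1B and RRP15 passed and none in the other direction, against 1.65% up and 1.99% down, and 10 members had an unadjusted p under 0.05.

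MRTO4 differed by 0.64 ± 0.14 at day 7 (adjusted p = 0.00591), from a rise of 0.45 in the innervated limb and a difference of -0.19 in the flank. The call was kept in all 10 other settings and without each array. RRP15 had 9.43, 9.45, 9.43 and 9.39 in the innervated limb at day 7, against 9.38, 9.24, 9.25 and 9.39 at day 0. In the flank it had 9.26, 9.41, 9.27 and 9.32 at day 7, against 9.85, 9.57, 9.44 and 9.64 at day 0. The limb groups met at the top of the uninjured range and the flank groups did not overlap. The 2 changes differed by 0.42 ± 0.09 (adjusted p = 0.00591). POLR1B had 6.77, 6.50, 6.23 and 6.13 in the innervated limb at day 7, against 6.76, 6.40, 6.41 and 6.59 at day 0. In the flank it had 6.0, 6.13, 5.50 and 5.80 at day 7, against 7.12, 6.40, 6.62 and 6.60 at day 0. The limb groups overlapped throughout and the flank groups did not. The difference of 0.695 ± 0.20 passed narrowly (adjusted p = 0.0459), in 4 of 10 other settings and in 6 of 16 fits without an array, and a dimmer POLR1B probe set (mean 3.86) showed 0.02 in both the limb and the flank. UTP14A (0.54 ± 0.20), NOLC1 (0.555 ± 0.21) and FBL (0.51 ± 0.18) had differences of like size that did not pass.

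The uninjured sites differed in RRP15. In the comparison of day 0, RRP15 was lower in the innervated limb than in the flank by 0.31 ± 0.07 (adjusted p = 0.00341) and no other member passed, where 1.90% of probe sets were higher and 2.46% lower. Its values of 9.38, 9.24, 9.25 and 9.39 in the limb and 9.85, 9.57, 9.44 and 9.64 in the flank did not overlap. This difference enters the differences of change given for the gene above. MRTO4 was lower in the limb by 0.305 ± 0.10 without passing (adjusted p = 0.08). This gap likewise enters the difference of changes of MRTO4 at day 7, when its group means were 9.64 in the innervated limb and 9.30 in the flank. In the comparison of day 0, 7 members had an unadjusted p under 0.05.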

How the data were processed

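Wound epidermis was profiled on Affymetrix arrays with biotin-labelled cRNA after Trizol and RNeasy extraction, per the labels' protocols. The 44 arrays hold log2 expression values normalized by the authors, between 2.41 and 15.04, as deposited. RMA and limma are named in the submitters' processing notes without role or version, and background correction and filters are not given in the sources used here. The number of arrays limits the precision of each value.

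Of 20080 probe sets, 45 controls were left out and 20035 were tested. A single gene symbol was given for 10951 of these, covering 8639 genes, and 9084 had none. All 48 members have an entry in the RefSeq gene table. A gene's probe set with the highest mean over all arrays stands for it. No column of the value table was left unused (0), and no sequence is printed.

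One limma fit (lmFit and eBayes, limma 3.58.1, R 4.3.3) of the 11 groups had 33 residual degrees of freedom, and 22 comparisons were tested, two-sided, with Benjamini-Hochberg adjustment over all 20035 probe sets at 0.05. The arrays are labelled as biological replicates. The members, lists and tests were chosen with earlier results of these data known, so no p-value over a list is given. Values of every array are given for up to 3 called members with the largest difference in each direction in each change from day 0 and each comparison of innervated with denervated limb, and for the brightest member of each role, and any other member is named with its test. Genes of other lists are named by the smallest adjusted p. Values of some further members were added after they were seen.

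In data simulated for the innervated limb at day 7 against day 0, few of the 20035 probe sets were changed. These were 63 by 0.5 (log2), 61 by 1 and 76 by 2. The fit recovered 57.1%, 91.8% and 100% of them in that order, with 13 false calls of 181. In the deposited data this comparison called many more, 2571 up and 2765 down, which makes the adjusted threshold less strict. The recovered shares therefore do not carry over to it. Arrays of the same replicate number deviated together in that comparison (correlations of 0.227 to 0.405), so the numbers were taken as pairs there. In each other pair of groups at least 1 correlation was 0.1 or lower, the lowest being -0.256. Alternatives were array centring, quantile normalization, array weights, a variance trend, fits of the compared groups alone, a replicate block, a filter on dim probe sets, means of probe sets, a muscle covariate, and fits without the 3 arrays of highest muscle signal or without each array.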

Additional observations from a re-analysis of the deposited data

Results flagged for a closer look

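In a group of 4 arrays, 1 array can lie far from the other 3. Over the 48 genes and 11 groups, 31 of 528 sets of 4 values (5.87%) had a gap above Dixon's 95% critical value, where chance gives about 1 in 20. Among the 26 genes chosen for a description by array, 20 of 286 sets did. Innervated limb day 0 replicate 2 was low for BYSL (8.39, others 8.59 to 8.62), GNL3 (9.30, others 9.65 to 9.69) and NOL9 (7.60, others 7.88 to 7.91). The same array was low in the mean of all 48 genes, at -0.195 relative to the mean over all arrays, against -0.0619 to -0.0448 on the others. GNL1 was low on innervated limb day 0 replicate 1 (6.62, others 7.18 to 7.29). On innervated limb day 7 replicate 1, BYSL (9.02, others 8.62 to 8.68), NOP16 (11.21, others 10.99 to 11.01) and POLR1D (8.86, others 8.78 to 8.79) were high. NOP10 was low on innervated limb day 7 replicate 4 (10.87, others 10.99 to 11.01), and RRP8 on innervated limb day 3 replicate 1 (8.42, others 8.76 to 8.82).

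Denervated limb day 1 replicate 3 was low for FBL (10.79, others 11.14 to 11.17) and NOP2 (5.68, others 6.05 to 6.12). Denervated limb day 7 replicate 1 was high for FBL (10.36, others 9.94 to 9.95) and POLR1B (6.54, others 6.13 to 6.16). At day 3 in the denervated limb, NCL was high on replicate 1 (11.06, others 10.97 to 10.98) and NOL9 on replicate 3 (8.06, others 7.88 to 7.89), and the mean of the 48 genes was lower on replicate 4 (0.00871) than on the other 3, which were all near 0.0172. In the flank, replicate 4 of day 1 was low for DKC1 (11.02, others 11.33 to 11.38) and for the mean of the 48 genes (0.0346, others 0.196 to 0.227). Replicate 3 of flank day 3 was low for NOC4L (7.46, others 7.67 to 7.71), NOP58 (11.13, others 11.47 to 11.53) and UTP3 (9.56, others 9.74 to 9.75), and replicate 1 was high for NOL6 (7.67, others 7.29 to 7.35).

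The changes of the innervated limb and of the flank differed by the test of the difference itself in 4 cases, all positive. RRP15 differed by 0.33 at day 3 and by 0.42 at day 7, MRTO4 by 0.64 at day 7, and POLR1B by 0.695 at day 7.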

How the results depend on the processing

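Of 442 counts of risen or fallen members under other settings, 386 stayed within 1.5 times the reported count, as did 350 of 400 without 1 array. No direction of a called member reversed. Of 2086 calls of single members 1880 were kept under other settings, and of 1688 without 1 array 1421 were kept. The number of genes risen at day 1 ranged over the settings from 17 to 21 in the innervated limb, 16 to 22 in the denervated limb and 14 to 19 in the flank. The medians moved by less than the spread between replicates in all 221 cases and in 198 of 200 without 1 array, although a median near 0 turned its sign without 1 array in several comparisons. That spread, 0.0786, is larger than many of the medians, so a small median could vanish and still count as unmoved. Of 480 counts in the other lists 427 stayed within 1.5 times. The variance trend and the replicate block in the fit of all arrays moved no member count beyond 1.5 times, and most counts that moved are below 10. The causes were not tested.

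The following give the count under the setting, with the reported count in parentheses. With the arrays of the compared groups alone, day 1 gave 1 fallen in the innervated limb (3) and 3 in the flank (5). Day 3 gave 1 fallen in the innervated limb (2), 7 risen (12) and 0 fallen (1) in the denervated limb and 2 fallen in the flank (5). Day 7 gave 6 risen in the innervated limb (10), 1 in the denervated limb (5) and 0 in the flank (3). From day 3 to day 7, 1 fell in the denervated limb (3) and 0 in the flank (3). The difference of changes gave 0 at day 3 (1) and 1 at day 7 (3), and the uninjured sites 0 fallen (1). With array weights, 0 fell in the denervated limb at day 3 (1), and 6 rose at day 3 (3) and 5 at day 7 (3) in the flank. From day 3 to day 7, 3 fell in the innervated limb (1), 6 in the denervated limb (3) and 9 in the flank (3), where 4 rose (1). At day 7, 2 were higher in the innervated than in the denervated limb (0). With centred arrays, 5 fell in the innervated limb at day 1 (3), 2 in the denervated limb at day 3 (1), and 1 rose there at day 7 (5). From day 3 to day 7, 0 fell in the innervated limb (1) and 1 in the denervated limb (3), and the difference of changes at day 3 gave 0 (1). With quantile normalization, 3 fell in the denervated limb at day 3 (1), 2 in the flank at day 1 (5), and 6 rose in the flank at day 3 (3). From day 3 to day 7, 0 fell in the innervated limb (1) and 6 in the flank (3). From day 1 to day 3, 1 rose in the denervated limb (3), and the difference of changes at day 3 gave 0 (1).

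Without the dimmest 25% of probe sets, 2 fell in the denervated limb at day 3 (1), and 5 fell at day 7 against day 3 in the denervated limb (3) and in the flank (3). With the mean of a gene's probe sets, 1 fell in the innervated limb at day 3 (2), 3 in the flank at day 1 (5) and 3 at day 3 (5). From day 1 to day 3, 5 rose in the denervated limb (3), and from day 3 to day 7, 5 fell in the denervated limb (3) and in the flank (3). The difference of changes at day 1 gave 1 fallen (0). Without the 3 arrays of highest muscle signal, 1 fell in the innervated limb at day 1 (3) and 1 at day 3 (2), 1 rose there at day 3 against day 1 (3), and 1 fell in the denervated limb from day 3 to day 7 (3). With the muscle covariate, day 7 gave 1 risen in the denervated limb (5) and 1 in the flank (3). From day 1 to day 3, 0 rose in the innervated limb (3) and 1 in the denervated limb (3), the difference of changes at day 3 gave 0 (1), and the uninjured sites gave 2 fallen (1). The replicate block in the 2 innervated groups of days 7 and 0 alone gave 3 fallen (6) and 8 risen (10). It was chosen after seeing the data, because arrays of the same number deviated together.

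Without 1 array at a time, risen members at day 1 numbered 18 to 20 in the innervated limb, 17 to 20 in the denervated limb and 16 to 21 in the flank. At day 7 risen members numbered 5 to 12, 0 to 5 and 1 to 3 in the same order. Fallen members in the innervated limb numbered 1 to 3 at day 3 and 0 to 1 from day 3 to day 7. In the denervated limb they numbered 0 to 3 at day 3, 4 to 9 at day 7 and 0 to 3 from day 3 to day 7. In the flank they numbered 2 to 6 at day 1, 2 to 7 at day 3 and 1 to 4 from day 3 to day 7, where 1 to 3 rose. From day 1 to day 3, 1 to 3 rose in each limb series. The difference of changes gave 0 to 1 risen at day 1 and at day 3, with medians from -0.035 to 0.0921 at day 1 and -0.00667 to 0.13 at day 7, and the uninjured sites gave 1 to 2 fallen. Leaving out genes that the name rule takes without a part in ribosome making was not run, since none of those listed is measured.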

Other observations

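Some factors of ribosome building outside the name rule also differed from day 0 at the later days. Of 93 such genes, 17 rose and 8 fell in the innervated limb at day 3, 16 rose and 3 fell in the denervated limb, and 7 rose and 14 fell in the flank. Over all probe sets 12.5% rose and 13.4% fell in the innervated limb at that day. The shares were 12.4% and 14.1% in the denervated limb and 12.6% and 14.8% in the flank. At day 7, 17 rose and 8 fell in the innervated limb, 11 rose and 8 fell in the denervated limb, and 10 rose and 13 fell in the flank. Over all probe sets 12.8% rose and 13.8% fell in the innervated limb at day 7. The shares were 13.1% and 13.9% in the denervated limb and 11.5% and 12.2% in the flank. Several of the counts at both days are near these shares and are no result about the list as a group. UBTF, which binds ribosomal DNA and brings in RNA polymerase I, rose at day 7 by 1.03 ± 0.18 in the innervated limb, 0.64 in the denervated limb and 0.975 in the flank. EXOSC3 was still raised at that day, by 0.71 ± 0.08, 0.64 and 0.645. MYBBP1A, a nucleolar protein that binds MYB, fell by 0.86 ± 0.14 in the flank, and its differences of -0.155 in the innervated limb and -0.345 in the denervated limb did not pass. MYCN rose by 3.00 ± 0.24 in the innervated limb, 1.83 in the denervated limb and 2.0 in the flank at day 7.

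Other genes of cell growth moved in both directions at day 1. Of 46 cytosolic translation factors, 10 rose and 6 fell in the innervated limb, 7 rose and 8 fell in the denervated limb, and 10 rose and 11 fell in the flank. Of 21 enzymes of nucleotide synthesis, 5 rose and 6 fell in the innervated limb, 2 rose and 5 fell in the denervated limb, and 2 rose and 8 fell in the flank. Over all probe sets 14.7% rose and 21.2% fell in the innervated limb at day 1. The shares were 14.1% and 20.1% in the denervated limb and 20.0% and 21.3% in the flank. Several counts of translation factors are near these shares and are no result about that list.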
